A study of Mus musculus with 40 samples.

Results

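The genes described here are 7 genes of Schwann cells and their myelin, Mbp, Pmp22, Prx, Mag, Sox10, Ngfr and Gap43, which were chosen by name and together are 7 of the 21204 genes in the authors' filtered table. All 7 were in that table, so that no member was lost to its filter on low counts. Bulk RNAseq measured them in whole pieces of rib that held bone, bone marrow and intercostal muscle, from immature mice of 7 weeks and mature mice of more than 10 months. The tissue was taken at baseline, which the study uses for the state before resection where it describes its imaging, on the day of resection (0dpr), and 2, 5 or 14 days later (dpr, days post resection), although the labels describe tissue of every stage as collected after rib resection. All mice were wild type, with no drug given, and the methods describe female C75BL/6 mice, as the strain is spelled there. The 10 groups had n = 4 libraries each, except that n = 3 for the mature 5dpr group. Its replicate 2 was not analysed here. The labels do not say that libraries of a group came from separate mice, so that p-values measure the spread between these libraries.

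Schwann cells are the glia of peripheral nerves and wrap axons in myelin, a stack of membrane held together by proteins such as MBP and PMP22. When an axon is cut, the Schwann cells behind the cut are known to shut down their myelin genes and to turn into repair cells that raise NGFR, GAP43 and neurotrophic factors and guide the regrowing axon. SOX10 is the transcription factor that keeps Schwann cell identity through that switch. The myelin genes were therefore read against the repair genes at each stage.

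The promoters of 4 of the 7 genes were used from the RefSeq table of the GRCm38.p6 build, and those of Prx, Mag and Ngfr are shown because these genes fell, did not pass the test and rose, respectively, in the comparison of 14dpr with baseline. Each is the 250 bases before the gene's first start in that table, read 5′ to 3′ along the gene's own strand, in lower case, with capitals for matches to the letters named after the sequences. Prx lies on the plus strand, and Mag and Ngfr on the minus strand.
Prx, chr7:27499074-27499323: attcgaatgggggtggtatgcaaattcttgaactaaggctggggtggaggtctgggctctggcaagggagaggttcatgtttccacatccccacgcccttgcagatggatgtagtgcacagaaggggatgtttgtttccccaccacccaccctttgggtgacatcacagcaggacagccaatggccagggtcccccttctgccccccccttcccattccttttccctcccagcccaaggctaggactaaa
Mag, chr7:30914864-30915113: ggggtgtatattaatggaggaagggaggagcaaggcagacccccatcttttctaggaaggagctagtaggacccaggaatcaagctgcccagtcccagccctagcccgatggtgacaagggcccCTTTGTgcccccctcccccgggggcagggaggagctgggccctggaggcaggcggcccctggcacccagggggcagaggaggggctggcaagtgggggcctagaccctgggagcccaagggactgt
Ngfr, chr11:95587699-95587948: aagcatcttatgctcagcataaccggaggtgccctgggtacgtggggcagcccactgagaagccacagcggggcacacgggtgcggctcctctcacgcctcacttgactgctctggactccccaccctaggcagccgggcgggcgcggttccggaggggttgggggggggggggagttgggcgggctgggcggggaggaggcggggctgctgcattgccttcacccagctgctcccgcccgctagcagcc

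Both strands of these windows were searched for ACAAAG and ACAATG, the core letters bound by SOX family factors, for GCGNGGGCG, which EGR family factors bind, and for TGANTCA, the AP-1 motif to which JUN binds. The only match was ACAAAG in the Mag window, 126 bases before the start, on the opposite strand. Of 32851 windows of the same length in the table, 16.5% held ACAAAG, 10.7% ACAATG, 4.7% GCGNGGGCG and 6.75% TGANTCA. The 4 windows of Pmp22, one for each of its starts, held no match. No window of Mbp, Sox10 or Gap43 was used.

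In the annotation of the same build, Prx spans chromosome 7 from 27499324 to 27520214, Mag chromosome 7 from 30899176 to 30914873, Pmp22 chromosome 11 from 63128982 to 63159547, and Ngfr chromosome 11 from 95568818 to 95587735. Sox10 lies on chromosome 15 from 79154908 to 79165240, Gap43 on chromosome 16 from 42248442 to 42340651, and Mbp on chromosome 18 from 82475146 to 82585637. Counts cover all exons of a gene, so that the Mbp count also holds its golli transcripts, which are known from immune cells as well. Mbp overlaps the processed pseudogene Rpl21-ps8 (at most 130 reads in a library) and Prx the antisense gene Gm15541 (at most 30 reads), both on the opposite strand, and the strand setting of the counting is not given in the sources used here.

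Libraries held 6057756 to 21537070 counts, and 38 of them detected at least 19068 genes. Mature 2dpr replicate 3 stood apart, since it detected 14214 genes and had no read for 2168 genes whose median over the libraries was at least 1 CPM (reads of a gene scaled to a common library size), against at most 177 such genes in any other library. It had 0 reads of Sox10 and of Ngfr and the highest level of Gap43 of any library, and results for mature mice at 2dpr are given with and without it. All levels below are CPM scaled by edgeR's TMM factors. Tests are edgeR's quasi-likelihood tests over all 21204 genes with p-values adjusted by the method of Benjamini and Hochberg, and a gene passed the test at an adjusted p under 0.05.

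Prx and Mbp, which mark myelinating Schwann cells, were detected in every library, and 6 of the 7 genes of the central myelin list had 7 to 122 reads in all 39 libraries together, among them Mog with 15 and Opalin with 12, which define oligodendrocytes. The exception was Aspa with 3305 reads, at 6.81 ± 1.19 CPM in immature and 9.96 ± 1.82 CPM in mature mice at baseline (SD, n = 4 each), and it fell from 0dpr to 2dpr by 2.26 and by 1.5 (adjusted p = 1.27e-07 and 4.02e-05). Its part in the results was not tested. In levels per kilobase of exon at immature baseline, Pmp22 led with 65.4 CPM per kilobase, followed by Mbp with 17.5, Prx with 9, Mag with 0.817, Sox10 with 0.755, Ngfr with 0.158 and Gap43 with 0.144. The abundant myelin genes therefore rested on 70 to 4236 reads per library, while Mag, Sox10, Ngfr and Gap43 rested on 0 to 146 reads.

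**Figure D1:**
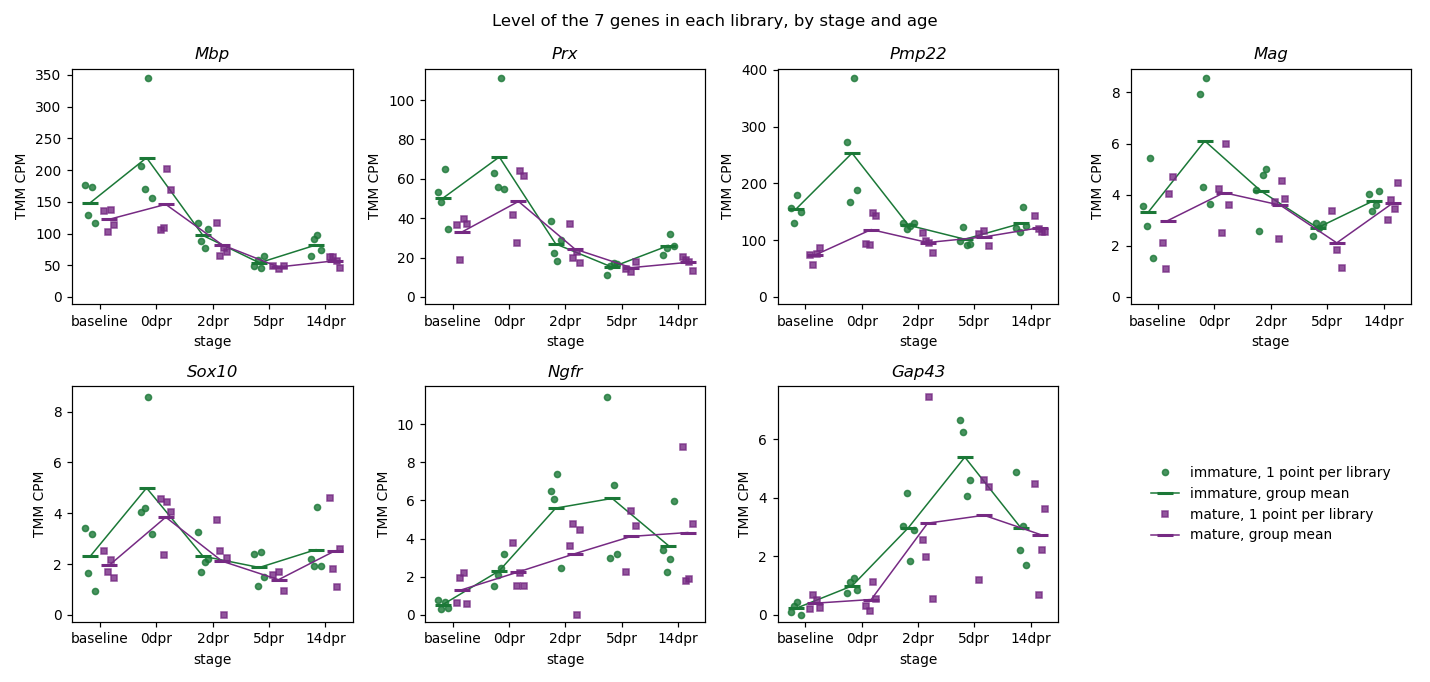
Level of each gene (TMM CPM, linear axis) by stage, with 1 point per library, circles for immature and squares for mature mice, and bars joined by lines for the group means. Mbp and Prx are highest at 0dpr and lowest at 5dpr at both ages, Gap43 is lowest at baseline, and the mature 2dpr library with 0 CPM of Sox10 and Ngfr is the one with 7.44 CPM of Gap43.

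Of the structural myelin genes, Mbp and Prx fell after resection at both ages and remained below baseline at 14dpr. Mbp encodes myelin basic protein, which glues the inner faces of the myelin membrane together. In replicate order, Mbp measured 176, 129, 173 and 116 CPM at baseline in immature mice, 206, 171, 345 and 156 CPM at 0dpr, and 116, 88, 76.9 and 107 CPM at 2dpr. It then measured 48.7, 57.7, 45.3 and 63.9 CPM at 5dpr and 64.9, 91.2, 97.6 and 73.9 CPM at 14dpr. Immature 0dpr replicate 3 was the highest library, and every immature 5dpr library lay below every library of the 3 earlier stages.

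In mature mice, Mbp measured 136, 103, 137 and 114 CPM at baseline, 105, 108, 202 and 169 CPM at 0dpr, and 116, 64.4, 78 and 70.5 CPM at 2dpr. The 3 libraries at 5dpr measured 49.4, 44 and 48.5 CPM, and those at 14dpr 63.5, 62.9, 56.7 and 45.1 CPM. The 0dpr and 2dpr groups overlapped through 2dpr replicate 1, whereas all libraries at 5 and 14dpr lay below all baseline libraries.

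From 0dpr to 2dpr, Mbp fell by 1.18 on the log2 scale (SE 0.222, adjusted p = 4.32e-05) in immature mice and by 0.83 (SE 0.221, adjusted p = 0.00221) in mature mice. Without mature 2dpr replicate 3, the log2 change in mature mice was -0.8 (adjusted p = 0.00647). It fell again from 2dpr to 5dpr, by 0.85 (SE 0.223, adjusted p = 0.0127) in immature and by 0.8 (SE 0.242, adjusted p = 0.0225) in mature mice. This second fall was close to the threshold. In immature mice it was -0.75 without 2dpr replicate 1 (adjusted p = 0.0504) and -0.77 without 5dpr replicate 4 (adjusted p = 0.0592). In mature mice it was -0.59 without 2dpr replicate 1 (adjusted p = 0.107) and -0.83, -0.75 and -0.82 without 5dpr replicate 1, 3 or 4 (adjusted p = 0.0568, 0.0868 and 0.0701). Without mature 2dpr replicate 3 it was -0.82 (adjusted p = 0.0292).

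Against baseline, Mbp at 5dpr was lower by 2.75-fold in immature (log2 change -1.46, SE 0.225, adjusted p = 4.31e-06) and by 2.59-fold in mature mice (-1.37, SE 0.247, adjusted p = 4.34e-05). The comparison of baseline with 5dpr was chosen only once the data were known. At 14dpr it was still lower, with log2 changes of -0.86 (SE 0.221, adjusted p = 0.0027) and -1.1 (SE 0.223, adjusted p = 0.000172). From 5dpr to 14dpr neither the immature log2 change of 0.6 (adjusted p = 0.147) nor the mature one of 0.27 (adjusted p = 0.595) passed the test. Fewer Schwann cells and less Mbp RNA in each cell cannot be told apart in such bulk samples, which holds for all genes below.

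Prx encodes periaxin, a scaffold protein of the outer membrane of the myelinating Schwann cell, and it moved with Mbp. In immature mice, Prx measured 53.2, 48.1, 65 and 34.4 CPM at baseline, 62.9, 55.7, 111 and 54.8 CPM at 0dpr, and 38.6, 22.1, 18.2 and 28.9 CPM at 2dpr. The later libraries measured 11.1, 15.5, 17.4 and 16.6 CPM at 5dpr and 21.4, 25.1, 31.9 and 26 CPM at 14dpr. The 5dpr group lay below all other immature groups with no overlap, and the 14dpr group lay below baseline.

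In mature mice, Prx measured 36.4, 18.8, 39.8 and 37.2 CPM at baseline and 41.4, 27.2, 64.2 and 61.3 CPM at 0dpr. Its range was 17.5 to 37.3 CPM at 2dpr, 12.6 to 17.8 CPM at 5dpr, and 13.2 to 20.4 CPM at 14dpr. Baseline replicate 2 was the one baseline library within the range at 14dpr.

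Prx fell by 1.4 on the log2 scale from 0dpr to 2dpr in immature mice (SE 0.279, adjusted p = 8.8e-05) and by 1 in mature mice (SE 0.277, adjusted p = 0.00315). The latter was -0.97 without mature 2dpr replicate 3 (adjusted p = 0.00821). Its further changes from 2dpr to 5dpr, -0.82 (adjusted p = 0.0693) and -0.71 (adjusted p = 0.122), did not pass the test. Against baseline, Prx was lower at 5dpr by 3.29-fold in immature (adjusted p = 1.36e-05) and 2.22-fold in mature mice (adjusted p = 0.00386), and at 14dpr by 1.92-fold (adjusted p = 0.00839) and 1.88-fold (adjusted p = 0.0109).

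Pmp22 encodes peripheral myelin protein 22, a membrane protein of compact myelin whose gene is also active in fibroblasts and other cells outside nerves, and it did not follow Mbp and Prx. In immature mice, Pmp22 measured 156, 131, 180 and 150 CPM at baseline, 273, 167, 386 and 188 CPM at 0dpr, and 131, 120, 125 and 130 CPM at 2dpr. It measured 98.8, 123, 91.1 and 94.1 CPM at 5dpr and 121, 115, 158 and 125 CPM at 14dpr. The libraries at 14dpr overlapped with those at baseline.

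Mature mice started from a lower level, with 73.8, 57.2, 76.6 and 87.1 CPM of Pmp22 at baseline, 93, 92.2, 148 and 142 CPM at 0dpr, and 113, 98.2, 95.7 and 76.9 CPM at 2dpr. They reached 111, 116 and 90.5 CPM at 5dpr and 142, 119, 114 and 114 CPM at 14dpr. Every mature library at 0, 5, and 14dpr lay above every mature baseline library.

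Pmp22 was the only one of the 7 genes to rise from baseline to 0dpr by edgeR's test, by 1.65-fold in immature (log2 change 0.72, SE 0.187, adjusted p = 0.0132) and 1.62-fold in mature mice (0.69, SE 0.189, adjusted p = 0.00721). Of all genes, 5.98% and 11.9% rose in these comparisons. DESeq2 called 4 of the 7 in immature mice, namely Mbp, Pmp22, Ngfr and Gap43, and Pmp22 alone in mature mice. In mature mice, 19 of 20 skeletal muscle genes rose at this step, and with a muscle score as covariate, described below, the change of Pmp22 was 0.58 (adjusted p = 0.255). In immature mice the rise was 0.61 without baseline replicate 3 (adjusted p = 0.0591), 0.48 without 0dpr replicate 3 (adjusted p = 0.121), and 0.72 in a fit of these libraries alone (adjusted p = 0.16). From 0dpr to 2dpr, Pmp22 fell by 1.01 in immature mice (SE 0.188, adjusted p = 3.96e-05), whereas its log2 change of -0.31 in mature mice (SE 0.188, adjusted p = 0.175) did not pass the test. The difference between these changes was -0.69 (SE 0.265, adjusted p = 0.313). Without mature 2dpr replicate 3, the mature change was -0.31 (adjusted p = 0.217) and the difference -0.7 (adjusted p = 0.401).

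Against baseline, Pmp22 had log2 changes of opposite sign in immature and mature mice. At 5dpr it was lower in immature mice (log2 change -0.6, SE 0.188, adjusted p = 0.0138) and higher in mature mice (0.52, SE 0.201, adjusted p = 0.043). Both calls were fragile. The immature change was -0.51 without baseline replicate 4 (adjusted p = 0.0552), and the mature change was 0.52, 0.42 and 0.54 without baseline replicate 1, 2 or 3 (adjusted p = 0.0711, 0.143 and 0.0606) and 0.49 and 0.46 without 5dpr replicate 1 or 3 (adjusted p = 0.115 and 0.149), and DESeq2 gave 0.44 (adjusted p = 0.0918). At 14dpr it was higher in mature mice by 1.66-fold (0.73, SE 0.189, adjusted p = 0.00238), with a log2 change of -0.25 in immature mice (SE 0.187, adjusted p = 0.347). The difference of these changes between the ages was -1.12 for 5dpr (SE 0.275, unadjusted p = 0.000248 and adjusted p = 0.21 by edgeR) and -0.98 for 14dpr (SE 0.266, unadjusted p = 0.000774 and adjusted p = 0.195), so that neither passed the test over all genes. All 8 genes of the fibroblast list rose from baseline to 14dpr at both ages, where 16.4% of all genes rose in immature and 17.1% in mature mice. The part of the fibroblast genes in the Pmp22 level was not tested.

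Mag encodes myelin-associated glycoprotein, which sits at the contact of myelin and axon, and Sox10 the transcription factor of Schwann cell identity. Neither passed the test in any of the 20 comparisons. Mag ranged from 1.53 to 5.45 CPM at baseline and from 2.38 to 2.88 CPM at 5dpr in immature mice, and from 1.09 to 4.71 CPM and from 1.15 to 3.37 CPM in mature mice. The groups overlapped at both ages. Its log2 change from 0dpr to 2dpr was -0.56 (SE 0.377, adjusted p = 0.236) in immature and -0.19 (SE 0.381, adjusted p = 0.714) in mature mice. The latter was -0.32 without mature 2dpr replicate 3 (adjusted p = 0.541). From baseline to 14dpr the change was 0.19 in immature (95% interval -0.57 to 0.94) and 0.31 in mature mice (-0.44 to 1.07).

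Sox10 ranged from 0.957 to 3.43 CPM at baseline, 3.2 to 8.56 CPM at 0dpr, 1.69 to 3.25 CPM at 2dpr, 1.13 to 2.47 CPM at 5dpr, and 1.91 to 4.23 CPM at 14dpr in immature mice. In mature mice it ranged from 1.46 to 2.52 CPM at baseline, 2.37 to 4.55 CPM at 0dpr, 0 to 3.72 CPM at 2dpr, 0.935 to 1.67 CPM at 5dpr, and 1.11 to 4.58 CPM at 14dpr. The highest group was 0dpr at both ages. From 0dpr to 2dpr the log2 change was -1.12 in immature mice (SE 0.53, adjusted p = 0.0848, and -1.22 with an adjusted p of 0.0278 by DESeq2) and -0.84 in mature mice (SE 0.529, adjusted p = 0.197), or -0.45 without mature 2dpr replicate 3 (adjusted p = 0.391). From baseline to 14dpr it was 0.16 (95% interval -0.89 to 1.22) and 0.36 (-0.7 to 1.42).

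The repair genes Gap43 and Ngfr were higher at 14dpr than at baseline at both ages. Gap43 encodes a growth-associated membrane protein of growing axons that repair Schwann cells also make. In immature mice, Gap43 measured 0.114, 0.309, 0.454 and 0 CPM at baseline, from at most 4 reads per library, and 0.747, 1.11, 1.27 and 0.835 CPM at 0dpr. It measured 3.04, 4.16, 1.84 and 2.9 CPM at 2dpr, 6.66, 6.26, 4.06 and 4.6 CPM at 5dpr, and 4.87, 2.23, 3.04 and 1.7 CPM at 14dpr. All immature libraries at 2, 5, and 14dpr lay above all immature libraries at baseline and 0dpr.

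In mature mice, Gap43 measured 0.21, 0.671, 0.493 and 0.224 CPM at baseline and 0.314, 0.125, 1.11 and 0.556 CPM at 0dpr. The libraries at 2dpr measured 2.56, 1.99, 7.44 and 0.555 CPM, those at 5dpr 1.21, 4.62 and 4.39 CPM, and those at 14dpr 4.46, 0.67, 2.23 and 3.63 CPM. The spread was wide, and 2dpr replicate 4 and 14dpr replicate 2 stayed within the range of the earlier stages.

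Gap43 rose from 0dpr to 2dpr by 2.94-fold in immature (log2 change 1.55, SE 0.621, adjusted p = 0.0407) and 5.56-fold in mature mice (2.47, SE 0.668, adjusted p = 0.00243). The mature change was 1.59 without mature 2dpr replicate 3 (adjusted p = 0.0383), and it was 2.53 with an adjusted p of 0.0605 in a fit of these libraries alone. The immature change lost the call when any one of 7 of the 8 libraries was left out, with values of 1.46, 1.64, 1.68 and 1.45 without 0dpr replicate 1, 2, 3 or 4 (adjusted p = 0.0831, 0.0555, 0.0569 and 0.0881) and of 1.54, 1.35 and 1.57 without 2dpr replicate 1, 2 or 4 (adjusted p = 0.0625, 0.105 and 0.0583). The comparisons with baseline were firmer. At 5dpr the log2 change was 4.57 in immature mice (95% interval 3.12 to 6.01, adjusted p = 9.06e-06) and 3.03 in mature mice (1.68 to 4.38, adjusted p = 0.000781). At 14dpr it was 3.71 (2.26 to 5.16, adjusted p = 0.000155) and 2.71 (1.39 to 4.03, adjusted p = 0.00165).

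Ngfr encodes the p75 neurotrophin receptor, which marks immature and repair Schwann cells and is also known from stromal cells of bone marrow. In immature mice, Ngfr measured 0.8, 0.309, 0.681 and 0.383 CPM at baseline, 1.49, 2.1, 2.46 and 3.2 CPM at 0dpr, and 6.49, 6.08, 7.37 and 2.44 CPM at 2dpr. It measured 11.4, 3, 6.81 and 3.21 CPM at 5dpr and 3.41, 2.23, 2.93 and 5.95 CPM at 14dpr. Every immature library after resection lay above every baseline library.

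In mature mice, Ngfr measured 0.629, 1.93, 2.17 and 0.561 CPM at baseline, 3.76, 1.5, 2.22 and 1.53 CPM at 0dpr, and 3.63, 4.76, 0 and 4.44 CPM at 2dpr. It measured 2.24, 5.43 and 4.67 CPM at 5dpr and 8.8, 1.79, 1.89 and 4.78 CPM at 14dpr. The groups at baseline and 14dpr overlapped.

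Against baseline, Ngfr in immature mice was higher by 3.47 on the log2 scale at 5dpr (95% interval 2.08 to 4.86, adjusted p = 0.000242) and by 2.73 at 14dpr (1.34 to 4.12, adjusted p = 0.0029). In mature mice the log2 change was 1.62 at 5dpr (0.32 to 2.92, adjusted p = 0.0583 by edgeR, although DESeq2 called it) and 1.67 at 14dpr (0.42 to 2.92, adjusted p = 0.04). The latter was lost without baseline replicate 1 (1.45, adjusted p = 0.116) or 4 (1.44, adjusted p = 0.114) and without 14dpr replicate 1 (1.07, adjusted p = 0.246) or 4 (1.62, adjusted p = 0.0726). From 0dpr to 2dpr neither the immature change of 1.27 (adjusted p = 0.0939) nor the mature change of 0.54 (adjusted p = 0.497) passed the test, and the latter was 0.94 without mature 2dpr replicate 3 (adjusted p = 0.136).

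**Figure D2:**
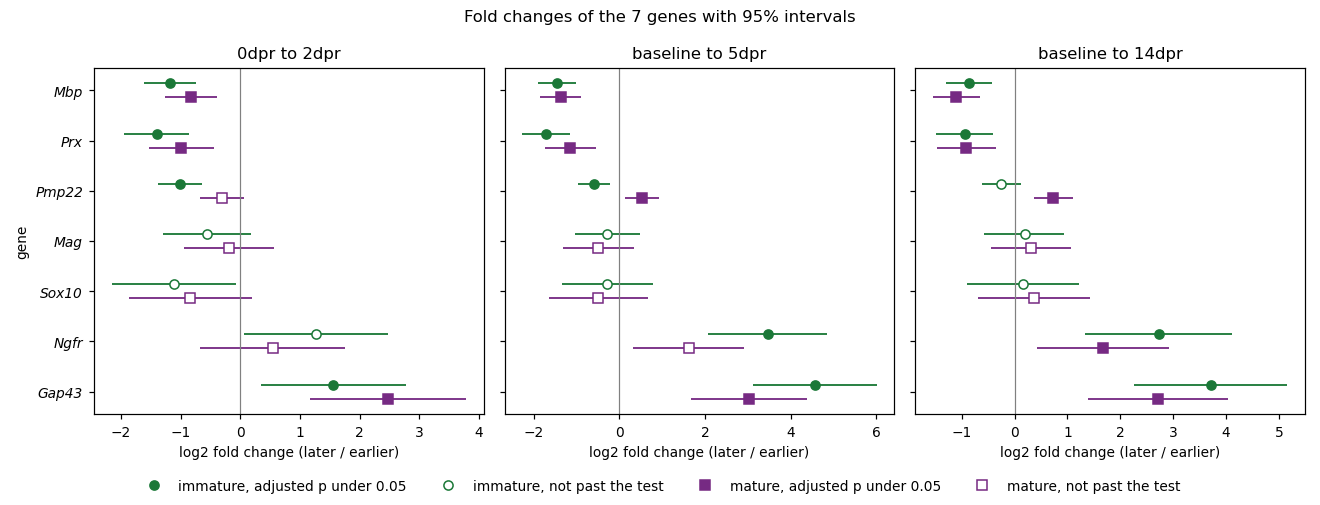
Log2 fold changes of the 7 genes (later over earlier stage) with 95% intervals from the edgeR fit, for 3 comparisons, with circles for immature and squares for mature mice and filled symbols where the adjusted p was under 0.05. Mbp and Prx lie left of 0 and Gap43 right of 0 in each panel, and Pmp22 splits by age in the comparisons with baseline.

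Comparisons with one stage in common share that stage's libraries. Counted over the 7 genes, 1 rose and 3 fell from 0dpr to 2dpr in immature mice, where 21.8% of all genes rose and 22.2% fell, and 1 rose and 2 fell in mature mice, where 22.7% rose and 24.9% fell. From 2dpr to 5dpr, 1 fell at each age, against 3.68% of all genes in immature and 6.38% in mature mice. From 5dpr to 14dpr none passed edgeR's test or DESeq2's at either age (2 in immature and 0 in mature mice had an unadjusted edgeR p under 0.05), while 3.18% and 4.18% of all genes did. From baseline to 5dpr, 2 rose and 3 fell in immature mice (15.7% and 13.7% of all genes) and 2 rose and 2 fell in mature mice (17.3% and 15.4%). From baseline to 14dpr, 2 rose and 2 fell in immature mice (16.4% and 15.1% of all genes) and 3 rose and 2 fell in mature mice (17.1% and 16.4%). The median log2 change of the 7 genes from 0dpr to 2dpr was -1.01 in immature and -0.31 in mature mice, against -0.04 and -0.05 over all genes.

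The share of repair reads was set against myelin reads within each library, which needs no scaling between libraries. In immature mice, reads of Ngfr and Gap43 together numbered 1.27 to 2.68 per 1000 reads of Mbp, Pmp22, Prx and Mag at baseline, 4.07 to 10 at 0dpr, 19.8 to 44.1 at 2dpr, 44 to 112 at 5dpr, and 19 to 39.2 at 14dpr. In mature mice they numbered 3.24 to 14.4, 5.54 to 16.7, 22.9 to 37, 19.3 to 57.8, and 12 to 57.8 per 1000 at the same stages. Immature libraries at baseline lay below all mature baseline libraries, and at both ages all libraries at 2dpr lay above all libraries at baseline and 0dpr. Mature 14dpr replicate 2 had 12 per 1000, within the mature baseline range. With Pmp22 left out of the myelin reads, the range was 2.52 to 4.66 at baseline and 37.3 to 91.6 at 14dpr in immature mice, and 4.81 to 21.2 and 28.7 to 153 in mature mice, so that this library, at 28.7, lay above the mature baseline range. The ratio is given as a description, since the 6 genes were chosen with results of these data known.

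**Figure D3:**
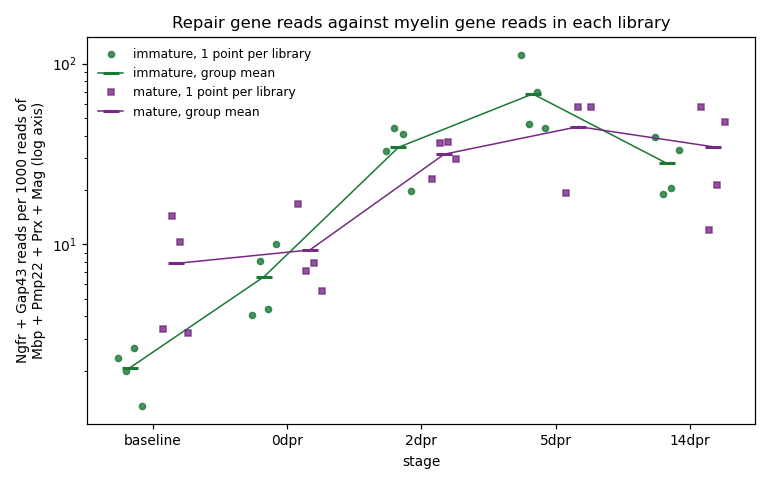
Reads of Ngfr and Gap43 per 1000 reads of Mbp, Pmp22, Prx and Mag in each library (log axis) by stage, with circles for immature and squares for mature mice and bars for group means. Immature libraries rise from 1.27 to 2.68 at baseline to 44 to 112 at 5dpr, and mature libraries spread more widely at baseline, 5dpr and 14dpr.

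Between the ages, Pmp22 was the only one of the 7 genes that differed. It was higher in immature mice by 2.09-fold at baseline (log2 difference 1.06, SE 0.19, adjusted p = 0.00397) and by 2.13-fold at 0dpr (1.09, SE 0.189, adjusted p = 0.00133), and the immature and mature libraries did not overlap at either stage. Of all genes, 0.358% were higher in immature mice at baseline and 0.571% at 0dpr. At 0dpr, a fit of these 8 libraries alone gave 1.1 (adjusted p = 0.404), and it called no gene at all, against 1288 genes with an unadjusted p under 0.05. The Pmp22 difference was 0.4 at 2dpr (SE 0.187, adjusted p = 0.357), -0.06 at 5dpr (95% interval -0.45 to 0.34) and 0.09 at 14dpr (-0.28 to 0.45). At 2dpr the libraries still did not overlap, with 120 to 131 CPM in immature and 76.9 to 113 CPM in mature mice.

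None of the 7 genes passed edgeR's or DESeq2's test between the ages at 2, 5, or 14dpr, where 0.627%, 0% and 0.00943% of all genes passed edgeR's (at 5dpr, 1081 genes had an unadjusted p under 0.05 and DESeq2 called 24 higher and 9 lower in immature mice), and 1, 0 and 2 of the 7 had an unadjusted p under 0.05. At 14dpr, Mbp and Prx measured more in every immature than in every mature library, with log2 differences of 0.52 (SE 0.222) and 0.57 (SE 0.282), but both had an adjusted p of 1. The margins were narrow, with a lowest immature value of 64.9 CPM against a highest mature value of 63.5 CPM for Mbp. For Prx these were 21.4 and 20.4 CPM. How many of all genes separate in this way was not counted. The test of whether a change differed between the ages called none of the 7 genes for 0dpr to 2dpr (0.0613% of all genes), baseline to 5dpr (0.033%) or baseline to 14dpr (0.0472%), by edgeR or DESeq2, and 1 of the 7, Pmp22, had an unadjusted p under 0.05 in each. Over the 10 groups ordered by mean level, neighbouring groups overlapped for all 7 genes, apart from Mbp in immature and mature mice at 14dpr (81.9 ± 15.1 and 57.1 ± 8.56 CPM, SD, n = 4 each).

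Intercostal muscle was a large and changing share of the RNA. A muscle score, the average of log2 CPM over 20 genes of skeletal muscle, was 11.48 to 11.89 at baseline, 11.62 to 12.66 at 0dpr, 9.12 to 9.73 at 2dpr, 9.91 to 10.32 at 5dpr, and 9.13 to 9.88 at 14dpr in immature mice. In mature mice it was 10.57 to 11.6, 11.84 to 12.81, 8.63 to 9.55, 9.38 to 10.56, and 9.38 to 10.26. All 20 fell from 0dpr to 2dpr at both ages, with medians of -2.77 and -3.24 on the log2 scale, while 22.2% and 24.9% of all genes fell. At both ages the muscle score did not overlap between 0dpr and 2dpr, nor between baseline and 5dpr or 14dpr. Loss of muscle with its nerves and a change within nerves therefore cannot be told apart in any of these comparisons.

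With the muscle score as a covariate, the log2 changes from 0dpr to 2dpr were -0.81 for Mbp (adjusted p = 0.351), -0.45 for Prx (adjusted p = 0.743) and -0.76 for Pmp22 (adjusted p = 0.285) in immature mice, and -0.36 for Mbp (adjusted p = 0.806) and 0.21 for Prx (adjusted p = 0.929) in mature mice, so that none was called and Prx in mature mice turned its sign. Gap43 kept changes of 1.36 and 2.22 without a call (adjusted p = 0.697 and 0.585). At 5dpr against baseline, the covariate left Mbp called at both ages (-1.25, adjusted p = 0.00722, and -1.23, adjusted p = 0.00142) and Gap43 called at both ages (4.45, adjusted p = 0.00403, and 2.97, adjusted p = 0.00479). Prx stayed called in immature (-1.16, adjusted p = 0.0445) but not in mature mice (-0.77, adjusted p = 0.102). At 14dpr, Mbp and Gap43 were called only in mature mice (-0.94, adjusted p = 0.0136, and 2.61, adjusted p = 0.0367), against -0.57 (adjusted p = 0.413) and 3.56 (adjusted p = 0.0758) in immature mice. Prx lost its call at 14dpr at both ages (-0.21, adjusted p = 0.859, and -0.46, adjusted p = 0.401), as did Ngfr (3.32, adjusted p = 0.0649, and 2.08, adjusted p = 0.09).

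Among all 16146 other genes with a mean of at least 1 CPM, the gene whose log2 levels over the 39 libraries were most like those of Mbp was Prx, and the reverse held too (Pearson r = 0.96). These correlations are a description, since the points share stages, muscle content and depth. Mal (0.899), Cldn19 (0.888) and Kif1a (0.879) were among the 5 genes most like Mbp, and Cldn19 (0.925), Ncmap (0.88) and B230206H07Rik (0.866) among the 5 most like Prx. MAL, CLDN19 and NCMAP are proteins of peripheral myelin, and KIF1A is a motor of axonal transport. With the group means taken out, r between Mbp and Prx was 0.849.

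**Figure D4:**
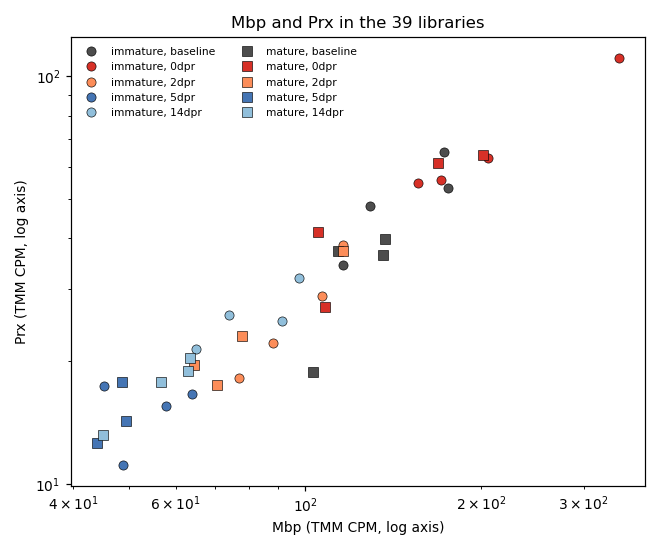
Mbp against Prx (TMM CPM, both axes log) in the 39 libraries, with circles for immature and squares for mature mice, colored by stage. The libraries lie along 1 line (r = 0.96 of log2 levels), with 5dpr at its low end and immature 0dpr replicate 3, at 345 CPM of Mbp and 111 CPM of Prx, at its high end.

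The other members had looser neighbours. Pmp22 was led by Zhx3 (r = 0.726), Mocs2 (0.725) and Lgi4 (0.712), and Prx and Mbp stood at places 32 and 101. Sox10 was led by Dhh (0.825), the hedgehog ligand of Schwann cells, Gldn (0.812), a protein Schwann cells release at nodes of Ranvier, and Cadm4 (0.811), a Schwann cell adhesion molecule. These values fell to 0.652, 0.634 and 0.601 without mature 2dpr replicate 3. Mag was led by Nr2f2 (0.635), Chp1 (0.634) and Cgnl1 (0.628), with Pmp22 in the fourth place (0.599). Ngfr was led by Dnpep (0.818), Syt11 (0.813) and Tm9sf4 (0.81), and Gap43 by Gnpnat1 (0.877), Ssr3 (0.873) and Sept2 (0.871), which are no Schwann cell markers. In the order for Ngfr, Gap43 stood at place 1627 of 16146 with r = 0.529 and, with the group means taken out, at r = -0.0916.

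The wider lists of nerve genes moved in both directions from 0dpr to 2dpr. Of 22 genes of myelin structure and lipid, 21 were tested, of which 12 fell and 1 rose in immature mice (median log2 change -1.16) and 7 fell and 1 rose in mature mice (-0.74), against medians of -0.04 and -0.05 over all genes. At this step 22.2% of all genes fell and 21.8% rose in immature mice, and 24.9% fell and 22.7% rose in mature mice. The mature count of falls was not far above the share of all genes. Ugt8a, which makes the galactolipids of myelin, fell by 2.25 (adjusted p = 0.000757) and by 1.42 (adjusted p = 0.0294). Drp2, the partner of periaxin, fell by 1.16 (adjusted p = 0.000395) and by 0.81 (adjusted p = 0.00979), and Ncmap by 1 (adjusted p = 0.0252) and by 1.24 (adjusted p = 0.00568). Prx and Mbp are among these genes. From baseline to 14dpr, 6 of the 21 fell and 1 rose in immature mice (median -0.77) and 8 fell and 4 rose in mature mice (-0.84), while 15.1% and 16.4% of all genes fell and 16.4% and 17.1% rose.

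Of 13 Schwann lineage regulators and receptors, 4 rose and 4 fell at each age from 0dpr to 2dpr, with medians of -0.5 and -0.15. Of all genes, 21.8% rose and 22.2% fell in immature and 22.7% and 24.9% in mature mice at this step, close to these shares of the list. Egr2, the transcription factor that drives myelin genes, rose by 1.93 in immature mice (SE 0.319, adjusted p = 6.11e-06), from 6.92 ± 3.79 to 26.3 ± 6.8 CPM, and by 2.21 in mature mice (SE 0.334, adjusted p = 1.05e-06), from 3.62 ± 1.21 to 16.9 ± 6.24 CPM, while Mbp and Prx fell. Its co-regulators Nab2 (1.33 and 1.57) and Nab1 (0.65 and 1.22) rose with it, as did the receptor Adgrg6 (0.5 and 0.85). Egr2 is also known from macrophages, and all 8 genes of the macrophage list rose at this step at both ages, with summed levels of 1030 to 2210 CPM at 0dpr and 6450 to 8320 CPM at 2dpr over both ages. Their part in the Egr2 level was not tested. S100b, a calcium-binding protein of Schwann cells that is also found in other tissues, fell by 1.62 (adjusted p = 0.000125) and by 1.76 (adjusted p = 3.46e-05), and Lgi4, a signal Schwann cells release, by 0.94 and by 0.5 (adjusted p = 0.000326 and 0.0441).

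Of 20 repair Schwann genes, 18 were tested, of which 5 rose and 1 fell in immature mice (median 0.45) and 6 rose and 1 fell in mature mice (0.74). Such rises were not far above those of all genes (21.8% and 22.7%). Besides Gap43, these included Tnc, a matrix protein made by many stromal cells (1.98 and 2.02), the stress factor Atf3 (1.06 and 2.93) and the adhesion molecule Nrcam (1.01 and 1.27), all with an adjusted p of at most 0.0112. Jun, the factor that drives the repair state and the one gene of this list named after its values were seen, had changes of -0.32 (adjusted p = 0.472) and -0.18 (adjusted p = 0.69) at this step, after it had risen from baseline to 0dpr by 1.25 (adjusted p = 0.0197) and 1.45 (adjusted p = 0.00264), from 48.8 ± 8.28 to 116 ± 37.2 CPM in immature and from 42.6 ± 18.9 to 116 ± 48.5 CPM in mature mice. Which cells of the tissue the rise of Jun came from was not tested. Of the 16 tested genes of neuregulin and neurotrophin signaling, 2 rose and 8 fell in immature and 3 rose and 7 fell in mature mice. In comparison, 22.2% of all genes fell in immature and 24.9% in mature mice. Nrg1, which encodes a signal for myelination known from axons, rose (1.64 and 2.22), as did Adam17, a protease that cleaves it (1.4 and 1.64). Bulk samples do not show which cells made either RNA, and their source was not tested. The neurotrophin receptors Ntrk2 (-2.02 and -2.5) and Ntrk3 (-1.79 and -3.63), their ligand Ntf3 (-2.6 and -1.38) and the sorting receptor Sort1 (-0.94 and -0.99) fell, all with an adjusted p of at most 0.0301.

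Axonal and perineurial genes were few and sparse. Of 8 tested axon and neuron genes, 1 rose and 2 fell at each age, with the falls close to the share of all genes. The one that rose at both was Tubb3, a tubulin of neurons that is also known from other growing cells, from 2.68 ± 0.637 to 31.9 ± 3.39 CPM in immature mice (log2 change 3.59, SE 0.426, adjusted p = 1.43e-08) and from 2.61 ± 1.09 to 35 ± 9.12 CPM in mature mice (3.75, SE 0.429, adjusted p = 4.63e-09). Snap25, a protein of nerve endings, fell from 0.646 ± 0.697 to 0.0262 ± 0.0523 CPM and from 2.45 ± 2.92 to 0.154 ± 0.149 CPM (adjusted p = 0.0143 and 0.00189), from few reads. The other gene that fell was Stmn2 in immature and Prph in mature mice. Of 5 perineurial genes, which mark the sheath around nerve bundles, 3 fell and 1 rose at each age. Lypd2 (-2.3 and -2.75), Itgb4 (-1.19 and -1.44) and Cldn1 (-1.96 and -0.95) fell, and the glucose transporter Slc2a1 (1.28 and 1.82), which many cell types use, rose.

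Of 13 genes of denervated muscle and satellite cells, among them acetylcholine receptor subunits and Myog, 8 rose from 0dpr to 2dpr in immature and 6 in mature mice, with none falling (21.8% and 22.7% of all genes rose), and from baseline to 5dpr 11 rose in immature and 12 rose and 1 fell in mature mice (15.7% and 17.3% of all genes rose). Their summed level was 126 to 166 CPM at baseline and 848 to 2980 CPM at 5dpr over both ages, the stage at which the mean of Gap43 was highest, and their part in the Gap43 level was not tested. Of the 4 tested melanocyte genes, which mark another descendant of the neural crest, 1 rose and 1 fell at each age from 0dpr to 2dpr. This was close to the shares of all genes, of which 22.2% fell in immature and 24.9% in mature mice.

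**Figure D5:**
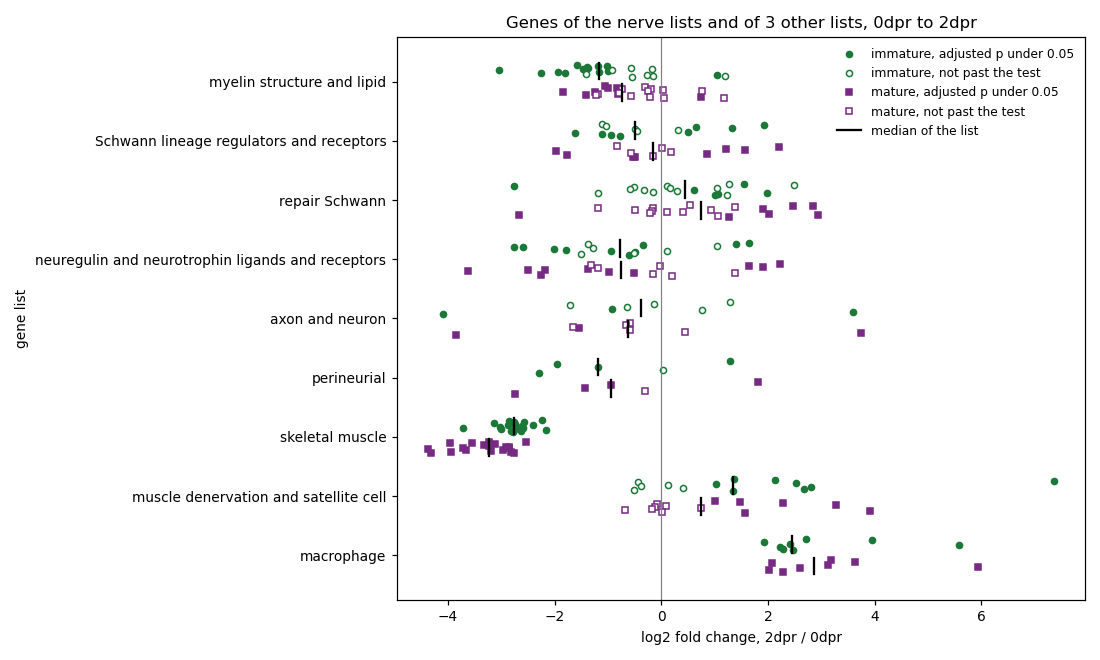
Log2 fold change from 0dpr to 2dpr of each tested gene in 6 nerve lists and in the skeletal muscle, muscle denervation and macrophage lists, with circles for immature and squares for mature mice, filled where the adjusted p was under 0.05, and black bars for list medians. All 20 muscle genes lie below 0 and all 8 macrophage genes above 0, and the myelin list has medians of -1.16 and -0.74.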

How the data were processed

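Bulk RNAseq of 39 libraries in 10 groups was analysed. Per the study's methods and the submitters' processing notes, the authors sequenced stranded paired-end libraries, aligned reads to GRCm38 with STAR 2.5.2a, and deposited raw counts per gene for 48733 genes and a filtered table of 21204, which leaves out 27529 genes. The authors also took the count values from STAR and compared samples with DESeq2. edgeR and limma are named without a role, and the strand setting of the counting is not given in the sources used here. The deposited CPM table, a normalized signal that the authors scaled by TMM factors, was matched by edgeR's CPM from the filtered counts to a relative difference of at most 5e-15. No value column was left unused (0 columns).

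Filtered counts were tested with edgeR 4.0.16 in R 4.3.3 (quasi-likelihood, TMM, 1 coefficient per group, all 39 libraries, Benjamini-Hochberg adjustment over 21204 genes, threshold 0.05), and 95% intervals are normal intervals from the fit's standard error. Alternatives were RLE size factors, DESeq2 1.42.0, 2 other gene filters (18322 and 35481 genes), the compared libraries alone, the replicate number as a block, a muscle score as covariate, and leaving out each library in turn. Likeness was Pearson's r of log2 CPM with a prior count of 2. In a simulation of the immature step from 0dpr to 2dpr over 21204 genes, 62% of 100 genes changed 2-fold and 80% of 100 changed 4-fold were called in the right direction. Only these genes, drawn above a minimum mean count, were changed, whereas 4617 genes rose and 4707 fell in the data. The adjustment was therefore stricter in the simulation, and these shares are not the power of the real test. No pair of libraries within a group agreed within sampling noise (smallest mean ratio of the squared difference to its counting variance 6.84).

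Same-numbered libraries deviated together, with every pair's correlation over 0.1, only between the ages at 0dpr (0.109 to 0.207), of 17 comparisons checked (-0.158 to 0.207). These correlations were weak and do not show that the numbers pair libraries. The main tests used no pairing, and the replicate block took each number as a block over all libraries. The members and the gene lists were chosen with earlier results of these data known. Besides the 7 members, the genes named are, from each nerve list, up to 6 genes called at both ages from 0dpr to 2dpr with the largest mean change, and the 5 genes most like each member, of which the first are given. Some genes that this rule names are not reported here.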

Additional observations from a re-analysis of the deposited data

Results flagged for a closer look

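Of 63 tests for a library far from the others of its group, 4 marked one, and chance alone marks about 1 in 20 groups. Prx measured 18.8 CPM in mature baseline replicate 2, against 36.4 to 39.8 CPM in the other mature baseline libraries. Sox10 measured 4.23 CPM in immature 14dpr replicate 3, against 1.91 to 2.19 CPM in the others. In mature 2dpr replicate 3, Sox10 measured 0 CPM, against 2.22 to 3.72 CPM, and Ngfr 0 CPM, against 3.63 to 4.76 CPM. This last library detected 14214 genes, fewer than the 19068 or more of all others, and the part of its low gene number in these values was not tested.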

How the results depend on the processing

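Of 31 calls for single members, 29 were kept with RLE size factors, 30 with DESeq2, 30 and 30 with the other gene filters, 28 with the replicate block, 27 in fits of the compared libraries alone, and 14 with the muscle score as covariate. Counts of members called that moved by over 1.5 times were as follows. From baseline to 0dpr in immature mice, 2 rose with RLE factors and filterByExpr genes, 4 with DESeq2, and 0 with the replicate block and with the compared libraries alone. From 0dpr to 2dpr, with the muscle score, 0 rose and 0 fell at both ages; with RLE factors 0 rose in immature mice, and with the compared libraries alone 2 rose in immature and 0 in mature mice. From 2dpr to 5dpr, 2 fell in immature mice with DESeq2, the muscle score or the compared libraries alone, and 0 in mature mice with the latter. With the compared libraries alone, 2 rose from 5dpr to 14dpr in immature mice, 2 rose from baseline to 0dpr in mature mice, 0 differed between the ages at 0dpr, and 1, Pmp22, differed in its change from baseline to 14dpr (-0.97, adjusted p = 0.027). With the muscle score, 0 rose and 0 fell from baseline to 14dpr in immature mice and 1 fell in mature mice, and 0 rose from baseline to 0dpr in mature mice. From baseline to 5dpr in mature mice, 1 rose with RLE factors, either gene filter, the replicate block or the muscle score, and 1 fell with the muscle score. With single libraries left out, the counts ran from 0 to 2 (baseline to 0dpr, immature), 0 to 1 (rise from 0dpr to 2dpr, immature), 0 to 2 and 0 to 1 (fall from 2dpr to 5dpr, immature and mature), and 1 to 2 (rise from baseline to 5dpr, mature), and by less for the rise from baseline to 14dpr in mature mice and the fall from baseline to 5dpr in immature mice (2 to 3 each). Ngfr from baseline to 14dpr in mature mice was 1.59 with the replicate block (adjusted p = 0.0735), and Pmp22 from baseline to 5dpr in immature mice -0.46 with the muscle score (adjusted p = 0.305). Uncalled values changed sign for Mag from 0dpr to 2dpr with the muscle score (0.41 in immature and 1.05 in mature mice) and, in mature mice, ran from -0.34 to 0.03 with single libraries left out. With the muscle score, Prx in mature mice at this step was 0.21. From baseline to 14dpr in immature mice, Mag was -0.11 and Sox10 -0.21 with the replicate block, and they ran from -0.06 to 0.54 and from -0.19 to 0.42 with single libraries left out, as did Sox10 in mature mice, from -0.09 to 0.61. With the replicate number as a block over all libraries, Pmp22 kept its difference between the ages at 0dpr (1.07), the comparison in which same-numbered libraries deviated together. Of the 5 genes most like a member, those shared with Spearman's rho, a prior count of 0.5 and group means taken out numbered 4, 5 and 3 for Mbp, 5, 4 and 3 for Prx, 2, 5 and 0 for Pmp22, 2, 5 and 0 for Mag, 1, 3 and 1 for Sox10, 2, 2 and 1 for Ngfr, and 3, 2 and 0 for Gap43. The causes were not tested, and depth limits Mag, Sox10, Ngfr and Gap43, with 0 to 146 reads per library.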
